A study of Mus musculus with 12 samples.

Results

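Fgf21 and Pdk4, genes of the liver's response to fasting, and the related genes Klb, Pdk1, Pdk2 and Creb3l3 were followed here. They were read in every library of a mouse liver RNA-seq study of high-fat diet and fenofibrate. The 6 genes were taken by symbol from the 25164 genes listed in the deposited tables, with earlier results of these data known. All 6 passed the filter on low counts that left 13477 genes for testing. Fenofibrate lowers blood lipids as an agonist of PPARA, a nuclear receptor of fat metabolism. The HFD plus fenofibrate mice were kept on a high-fat diet for 14 weeks and were gavaged with fenofibrate in the last 4 of these, following 10 weeks of diet only. The HFD mice were kept on a high-fat diet for 14 weeks without fenofibrate, and the Control mice on a normal diet for 14 weeks. The study assigned 10 mice to each group, and 4 libraries per group were sequenced. Strain, sex, age, fenofibrate dose, the treatment of the other groups at gavage and whether the mice were fed or fasted when the livers were taken are all details not stated in the labels used here. The word fasting therefore describes what Fgf21 and Pdk4 are known for, not the state of the animals. No source states that libraries came from separate cages or sequencing runs, so p-values measure only the spread between these libraries.

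In the fasted liver, fatty acids from adipose tissue activate PPARA, and hepatocytes turn to fatty acid oxidation, ketone body production and glucose synthesis. FGF21 is a hormone that the liver secretes under fasting and under several kinds of nutrient stress; it signals through FGF receptors that are held in complex with beta-klotho, the product of Klb. The pyruvate dehydrogenase kinases (the Pdk genes) phosphorylate and switch off the pyruvate dehydrogenase complex, which spares pyruvate for glucose synthesis, and Pdk4 is the isoform best known for its induction by fasting and by PPARA agonists. Creb3l3 encodes CREBH, a transcription factor of hepatocytes that sits in the endoplasmic reticulum membrane and is cut free in the Golgi by the site-1 and site-2 proteases; CREBH and PPARA are both known to activate Fgf21.

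The proximal promoters of Fgf21, Pdk4 and Pdk2 are shown because Fgf21 and Pdk4 varied most between libraries and Pdk2 passed the test. Each runs 5′ to 3′ on the gene's own strand, from 250 bases before to 50 bases after the RefSeq start on GRCm38.p6, and all lie on the minus strand: chr7:45615441-45615740 for Fgf21, chr6:5496229-5496528 for Pdk4 and chr11:95041322-95041621 for Pdk2. Capitals mark matches on either strand to the motif letters given after the sequences.
Fgf21: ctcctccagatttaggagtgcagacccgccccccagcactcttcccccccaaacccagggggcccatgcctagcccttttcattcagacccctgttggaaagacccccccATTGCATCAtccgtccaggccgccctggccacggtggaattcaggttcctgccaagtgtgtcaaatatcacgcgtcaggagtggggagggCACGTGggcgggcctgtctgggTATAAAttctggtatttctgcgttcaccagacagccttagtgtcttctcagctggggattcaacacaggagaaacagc
Pdk4: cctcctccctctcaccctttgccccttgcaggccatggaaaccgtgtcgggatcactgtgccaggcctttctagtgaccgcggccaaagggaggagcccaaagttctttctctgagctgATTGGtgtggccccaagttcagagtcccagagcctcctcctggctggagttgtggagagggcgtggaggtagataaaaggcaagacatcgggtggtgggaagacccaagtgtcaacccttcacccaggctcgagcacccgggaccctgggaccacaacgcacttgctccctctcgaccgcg
Pdk2: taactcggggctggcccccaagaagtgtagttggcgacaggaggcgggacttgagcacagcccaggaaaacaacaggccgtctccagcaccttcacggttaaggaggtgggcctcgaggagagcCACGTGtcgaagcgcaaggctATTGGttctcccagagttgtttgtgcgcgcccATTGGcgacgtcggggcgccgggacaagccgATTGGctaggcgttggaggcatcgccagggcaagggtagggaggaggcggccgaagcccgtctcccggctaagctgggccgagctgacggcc

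The Fgf21 window holds the E-box CACGTG at position -50 from the start, a TATAAA at -28 and, on the other strand, the core TGATGNAAN of the amino acid response element at -140. The E-box was present in 7.15% of the 32851 RefSeq windows of this length, TATAAA in 13.6% and the amino acid response core in 3.95%. Pdk2 has the same E-box at -126 and 3 inverted CCAAT boxes at -105, -73 and -42, and Pdk4 has 1 inverted CCAAT box at -131; CCAAT was found in 37.4% of windows. The CRE half-site TGACG, present in 20.8% of windows and left in lower case, occurs in Fgf21 at -68, in Klb at -146 and in Pdk2 at 43. The nuclear receptor half-site AGGTCA (16.3% of windows), the FOXO core TGTTTAC (3.65%) and the full cAMP response element TGACGTCA (1.79%), which contains TGACG, were in none of the 6 windows. A match is only a run of letters in this window.

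Total counts ran from 15797016 to 18514481 per library, and the 8 hepatocyte markers, albumin among them, were above 0 in all 12 libraries and summed to between 112170 and 135480 CPM, reads scaled to a fixed library total. Libraries 1 and 3 of the HFD plus fenofibrate group stood apart. The 7 striated muscle markers listed summed to 177, 0.77, 134 and 0.54 CPM in HFD plus fenofibrate libraries 1 to 4, to 0.66 to 1.09 in HFD and to 0.28 to 0.71 in Control, and Ckm, muscle creatine kinase, was at 17.5 and 10.6 CPM in libraries 1 and 3 and at 0 in the other 10. Library 1 also held 2164 CPM of the 12 pancreatic acinar markers, against at most 13.9 in the other HFD plus fenofibrate libraries, 31.4 in HFD and 9.92 in Control, and 1185 CPM of the 5 erythroid markers, against 202 to 397 in the others of its group. HFD library 1 was low for 2 other lists: the 6 Kupffer cell and macrophage markers summed to 171 CPM there and to 350.4 to 434 in the other HFD libraries, and the 5 sinusoidal endothelial markers to 133 and to 242 to 262. Results with fenofibrate are therefore also given without these 2 libraries, which leaves 2 in that group and, against HFD, 55 rises and 69 falls among all genes, where the fit of all 12 libraries had 928 and 888. The part of RNA from these other cells in the results was not tested, and in bulk RNA fewer cells of a type and less RNA per cell cannot be told apart.

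Of the 6 genes, only Pdk2 passed the test in any of the 3 comparisons. It rose in HFD plus fenofibrate livers against HFD livers and fell in HFD livers against Control livers. In HFD plus fenofibrate against HFD, 1 of the 6 genes was called, where 13.5% of all tested genes were (6.89% higher and 6.59% lower). In HFD against Control, 1 of the 6 was called, where 12.8% of all tested genes were (6.13% higher and 6.64% lower). In HFD plus fenofibrate against Control, 0 of the 6 were called by edgeR, DESeq2 or limma-voom, where edgeR called 9.17% of all tested genes (4.86% higher and 4.31% lower); 3 of the 6, Pdk4, Creb3l3 and Pdk2, had an unadjusted edgeR p under 0.05. Unless another test is named, adjusted p-values come from the quasi-likelihood F-test of edgeR, with the Benjamini-Hochberg procedure applied over all 13477 genes, and a gene is said to have risen or fallen where it is under 0.05. Levels are TMM-scaled CPM, given as mean ± SD over the 4 libraries of a group or library by library in the order of their numbers 1 to 4, and log2 fold changes are ± SE. HFD plus fenofibrate against HFD and HFD against Control share the HFD libraries, so they are not independent of each other.

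**Figure D1:**
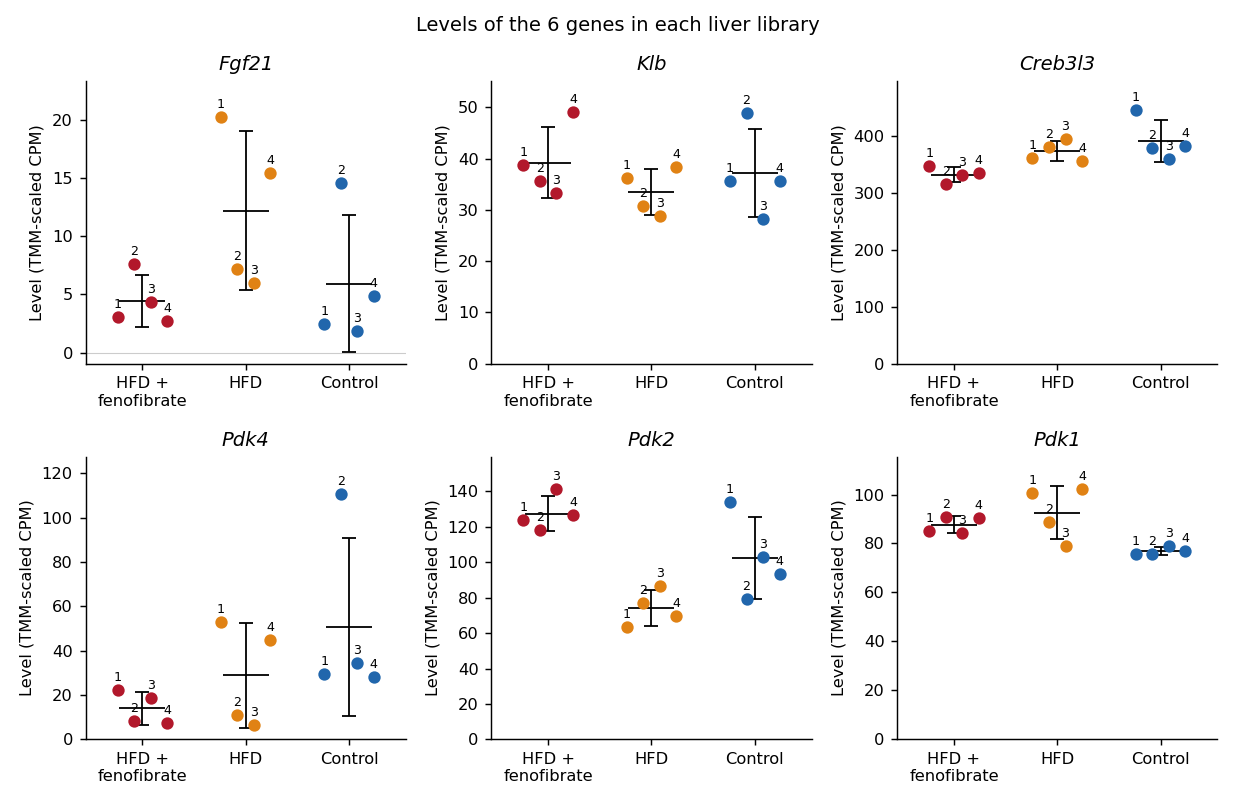
Level of each of the 6 genes in TMM-scaled CPM (vertical axes, linear and including 0) in the 4 libraries of each group, with a point per library marked by its number, a horizontal line at the group mean and error bars of ± 1 SD. Control library 2 stands above the other Control libraries for Fgf21 and Pdk4, and all 4 HFD plus fenofibrate points of Pdk2 lie above all 4 HFD points.

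Fgf21 (ENSMUSG00000030827, chromosome 7, 45613886 to 45615490, minus strand) was at 3.01, 7.62, 4.38 and 2.71 CPM in HFD plus fenofibrate livers, at 20.2, 7.19, 5.95 and 15.4 CPM in HFD livers, and at 2.46, 14.5, 1.87 and 4.85 CPM in Control livers. HFD libraries 1 and 4 were the highest of all 12, Control library 2 was next, and each pair of groups overlapped. The counts behind these levels were 61, 127, 90 and 55 reads with fenofibrate, 299, 122, 97 and 249 in HFD, and 44, 224, 30 and 78 in Control. The mean was 4.43 ± 2.25 CPM in HFD plus fenofibrate, 12.2 ± 6.79 in HFD and 5.93 ± 5.88 in Control. None of the 3 comparisons passed: HFD plus fenofibrate against HFD gave a log2 fold change of -1.47 ± 0.54 (adjusted p = 0.0813), and HFD plus fenofibrate against Control gave -0.42 ± 0.56 (adjusted p = 0.687).

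The call for Fgf21 depended on single libraries and on the genes or libraries that entered the fit. For HFD plus fenofibrate against HFD, adjusted p was 0.0282 with only the 8 libraries compared, 0.0242 with no filter on low counts, 0.0282 without Control library 2 and 0.0454 without HFD plus fenofibrate library 2, with log2 fold changes between -1.85 and -1.46. The authors' deposited table gives -1.47 with an adjusted p of 0.0346 for the same comparison. For HFD against Control, the fold of 1.05 ± 0.54 (adjusted p = 0.228) became 1.99 (adjusted p = 0.0141) once Control library 2 was left out, and for HFD plus fenofibrate against Control the sign turned to 0.52 (adjusted p = 0.599). Without HFD library 1, the highest of all 12 and the one low for macrophage and endothelial markers, the change against HFD was -1.12 (adjusted p = 0.229). It was -1.24 (adjusted p = 0.409) without HFD plus fenofibrate libraries 1 and 3.

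Klb (ENSMUSG00000029195, chromosome 5, 65348314 to 65384007, plus strand), the co-receptor that makes a cell responsive to FGF21, was at 38.8, 35.6, 33.3 and 49.1 CPM in HFD plus fenofibrate livers, at 36.2, 30.8, 28.7 and 38.3 CPM in HFD livers, and at 35.7, 48.8, 28.2 and 35.7 CPM in Control livers. The groups overlapped in every pair, and the highest value of each was no more than 1.73 times its lowest. The log2 fold change was 0.23 ± 0.16 with fenofibrate against HFD (adjusted p = 0.346), -0.15 ± 0.16 in HFD against Control (adjusted p = 0.602) and 0.08 ± 0.16 with fenofibrate against Control (adjusted p = 0.802). Klb did not pass in any comparison.

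Of the 8 genes of the FGF21 signalling list, 6 were tested. Alpha-klotho (Kl) and Fap, the protease that inactivates circulating FGF21 in humans, averaged under 0.3 CPM in every group and were not tested. Fgfr4, the main FGF receptor of hepatocytes, rose to 50.7 ± 8.81 CPM in HFD plus fenofibrate livers, against 38.0 ± 2.75 CPM in HFD livers (0.41 ± 0.12, adjusted p = 0.0320). Fgfr1, the receptor through which FGF21 mainly acts in adipose tissue, fell to 4.50 ± 1.06 CPM in HFD livers, against 10.1 ± 2.61 CPM in Control livers (-1.16 ± 0.23, adjusted p = 0.00379). Fgfr3 rose to 26.5 ± 4.40 CPM in HFD livers, against 18.6 ± 0.68 CPM in Control livers (0.51 ± 0.12, adjusted p = 0.0133).

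With fenofibrate against HFD, 1 of the 6 tested genes of this list rose and 0 fell, and the median log2 fold change was 0.01, as for all tested genes. In HFD against Control, 1 rose and 1 fell, with a median of 0.14 against -0.02 for all tested genes. With fenofibrate against Control, 0 of the 6 were called by edgeR, DESeq2 or limma-voom, 2 had an unadjusted edgeR p under 0.05, and the median was 0.04 against -0.01. The change of Fgfr4 was 0.51 (adjusted p = 0.122) with HFD plus fenofibrate libraries 1 and 3 left out. Fgfr2 averaged 29.5 ± 6.33 CPM with fenofibrate, 37.8 ± 5.64 in HFD and 29.4 ± 1.94 in Control and did not pass in any comparison.

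Creb3l3 (ENSMUSG00000035041, chromosome 10, 81084324 to 81098874, minus strand) was at 347, 315, 331 and 335 CPM in HFD plus fenofibrate livers, at 362, 381, 395 and 357 CPM in HFD livers, and at 445, 379, 360.5 and 383 CPM in Control livers. All 4 HFD plus fenofibrate libraries lay below every HFD and every Control library, while HFD and Control overlapped. The differences were small and did not pass: -0.17 ± 0.09 with fenofibrate against HFD (adjusted p = 0.218), -0.24 ± 0.09 with fenofibrate against Control (adjusted p = 0.118) and -0.07 ± 0.09 in HFD against Control (adjusted p = 0.684). Groups did not overlap for 20.7% of all tested genes with fenofibrate against HFD, where 2 of the 6 genes, Creb3l3 and Pdk2, were in that state. They did not overlap for 13.1% with fenofibrate against Control, where 3 of the 6 were: Creb3l3, Pdk1 and Pdk4. In HFD against Control they did not overlap for 17.6% of all tested genes and for 0 of the 6.

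Of the 9 genes of the CREBH list, which holds Creb3l3, its 2 proteases and 6 known or reported targets, 1 fell and 0 rose with fenofibrate against HFD, with a median log2 fold change of -0.12 against 0.01 for all tested genes. The gene that fell was Apoa4, an apolipoprotein of triglyceride-rich particles: it was at 10.3, 16.4, 11.4 and 15.5 CPM in HFD plus fenofibrate livers, against 35.8, 21.1, 20.2 and 31.9 CPM in HFD livers (-1.02 ± 0.19, adjusted p = 0.00442). As for Fgf21, HFD libraries 1 and 4 were the high ones, but all 4 HFD values lay above all 4 values with fenofibrate. It was -0.77 (adjusted p = 0.113) when HFD plus fenofibrate libraries 1 and 3 were left out. Apoa4 rose in HFD against Control (0.65 ± 0.19, adjusted p = 0.0358).

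With fenofibrate against Control, 1 of the 9 rose and 4 fell, and in HFD against Control 1 rose and 4 fell; both comparisons use the same Control libraries. Hamp, Insig2, Apoa5 and Apoc2 are the ones that fell in each. Hamp, the iron hormone hepcidin, stood at 465 ± 42.4 CPM with fenofibrate, 503 ± 127 in HFD and 1015 ± 85.3 in Control. Insig2, which retains SREBP precursors in the endoplasmic reticulum, stood at 280.0 ± 103 CPM with fenofibrate, 438 ± 126 in HFD and 762 ± 15.8 in Control. Apoa5 and Apoc2 encode apolipoproteins that act on lipoprotein lipase. Apcs, the serum amyloid P component, rose with fenofibrate against Control (1.0 ± 0.26, adjusted p = 0.0248). Without HFD plus fenofibrate libraries 1 and 3, 0 rose and 3 fell there: Apcs was at 1.19 (adjusted p = 0.0567) and Apoc2 at -0.60 (adjusted p = 0.266), while Hamp, Insig2 and Apoa5 were called. The list's median was -0.38 with fenofibrate against Control and -0.17 in HFD against Control, beside -0.01 and -0.02 for all tested genes.

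Pdk4 (ENSMUSG00000019577, chromosome 6, 5483351 to 5496309, minus strand) was at 22.1, 8.04, 18.6 and 7.34 CPM in HFD plus fenofibrate livers, at 52.9, 10.7, 6.44 and 44.9 CPM in HFD livers, and at 29.3, 111, 34.5 and 28.0 CPM in Control livers. Control library 2 was far above the other 3 Control libraries, HFD libraries 1 and 4 were far above HFD libraries 2 and 3, and all 4 HFD plus fenofibrate libraries lay below all 4 Control libraries. The mean was 14.0 ± 7.47 CPM with fenofibrate, 28.8 ± 23.6 in HFD and 50.6 ± 40.1 in Control. The largest difference, with fenofibrate against Control, was -1.84 ± 0.61 on the log2 scale and did not pass (adjusted p = 0.0718). With fenofibrate against HFD it was -1.02 ± 0.61 (adjusted p = 0.265) and in HFD against Control -0.82 ± 0.59 (adjusted p = 0.409).

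The Pdk4 difference between HFD plus fenofibrate and Control passed with only those 8 libraries in the fit (adjusted p = 0.0316), with no filter on low counts (0.00817) and without HFD library 3 (0.0427), and without Control library 2 it was -1.12 (adjusted p = 0.285). Leaving out Control library 2 brought the difference in HFD against Control to -0.09 (adjusted p = 0.940). Pdk4 is abundant in skeletal muscle, and HFD plus fenofibrate libraries 1 and 3, the higher of their group for Pdk4, are those that held the muscle transcripts given above. The part of muscle RNA in their Pdk4 levels was not tested. Without both libraries the Pdk4 difference was -2.70 against Control (adjusted p = 0.103) and -1.89 against HFD (adjusted p = 0.268).

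**Figure D2:**
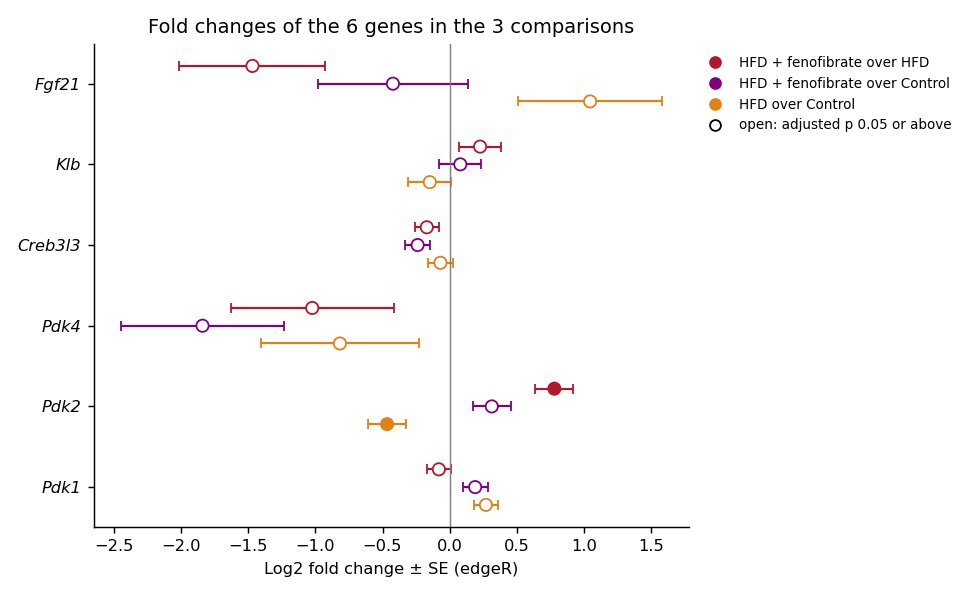
Log2 fold change (horizontal axis) of each of the 6 genes in the 3 comparisons, with bars of ± 1 SE, filled points where the adjusted p of edgeR was under 0.05 and open points elsewhere. Only Pdk2 is filled, at 0.78 for HFD plus fenofibrate over HFD and at -0.47 for HFD over Control, and the longest bars are those of Pdk4 and Fgf21.

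Pdk2 (ENSMUSG00000038967, chromosome 11, 95026258 to 95041354, minus strand), the widely expressed isoform that is prominent in liver, was at 123.7, 118, 141 and 127 CPM in HFD plus fenofibrate livers, at 63.6, 77.1, 86.6 and 69.4 CPM in HFD livers, and at 134, 79.4, 103 and 93.4 CPM in Control livers. Every HFD plus fenofibrate library was above every HFD library, while Control library 2 lay among the HFD libraries. Pdk2 rose with fenofibrate against HFD by 0.78 ± 0.14 on the log2 scale (adjusted p = 0.00387), with means of 127 ± 9.87 CPM in HFD plus fenofibrate and 74.2 ± 9.94 CPM in HFD. It fell in HFD against Control (-0.47 ± 0.14, adjusted p = 0.0419), where Control averaged 102 ± 23.2 CPM. The change with fenofibrate against Control was 0.31 ± 0.14 and did not pass (adjusted p = 0.181).

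The rise of Pdk2 with fenofibrate against HFD was called without any 1 of the 12 libraries (adjusted p between 0.00112 and 0.0187), but with HFD plus fenofibrate libraries 1 and 3 both left out it was 0.73 with an adjusted p of 0.0834. The fall in HFD against Control was close to the threshold: adjusted p reached 0.160 when 1 library was left out, and the call was lost without Control library 1 or 3, without HFD library 1, 2 or 4 and without HFD plus fenofibrate library 1, 3 or 4. The authors' deposited table gives 0.77 for fenofibrate against HFD (adjusted p = 3.2e-09) and -0.45 for HFD against Control (adjusted p = 0.0570). The antisense gene Gm11513 overlaps Pdk2 with 0 shared exon bases and had at most 1 count in any library. The strand setting of the counting is not stated in the labels used here. If reads were counted over exons, strand would be needed only where exons are shared.

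Pdk1 (ENSMUSG00000006494, chromosome 2, 71873224 to 71903858, plus strand), an isoform known as a target of the hypoxia factor HIF1A, was at 85, 90.8, 84.1 and 90.5 CPM in HFD plus fenofibrate livers, at 100.5, 88.9, 78.9 and 102 CPM in HFD livers, and at 75.5, 75.6, 79.0 and 77.0 CPM in Control livers. The Control libraries were nearly level and lay below every HFD plus fenofibrate library, and HFD library 3 lay just under the highest of them. The log2 fold change was 0.27 ± 0.09 in HFD against Control (adjusted p = 0.0674), 0.19 ± 0.09 with fenofibrate against Control (adjusted p = 0.214) and -0.08 ± 0.09 with fenofibrate against HFD (adjusted p = 0.584), which turned to 0.09 when libraries were scaled by total counts alone, a scaling that moved the median of all tested genes to 0.18. The first of these was called by DESeq2 (0.28, adjusted p = 0.0245) and by edgeR without HFD library 3 (0.34, adjusted p = 0.0273).

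Divided by the summed exon length of each gene, so that genes can be compared, Creb3l3 was the most abundant of the 6 in each group at 110 ± 4.33, 124 ± 5.85 and 129.9 ± 12.2 CPM per kilobase in HFD plus fenofibrate, HFD and Control livers. Pdk2 came next at 40.3 ± 3.12, 23.5 ± 3.14 and 32.4 ± 7.35 CPM per kilobase in the same order of groups. In HFD plus fenofibrate livers the order went on with Pdk1 at 11.3 ± 0.45, Klb at 8.62 ± 1.53, Fgf21 at 4.66 ± 2.36 and Pdk4 at 4.00 ± 2.13 CPM per kilobase, and Fgf21 and Pdk4 did not differ beyond their spread. In HFD livers the levels of Fgf21 (12.8 ± 7.14), Pdk1 (11.9 ± 1.40), Pdk4 (8.19 ± 6.72) and Klb (7.36 ± 0.99 CPM per kilobase) overlapped in their spread, except that every Pdk1 value lay above every Klb value. In Control livers Pdk4 was at 14.4 ± 11.4, Pdk1 at 9.87 ± 0.21, Klb at 8.16 ± 1.88 and Fgf21 at 6.23 ± 6.18 CPM per kilobase, again within their spread of each other.

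**Figure D3:**
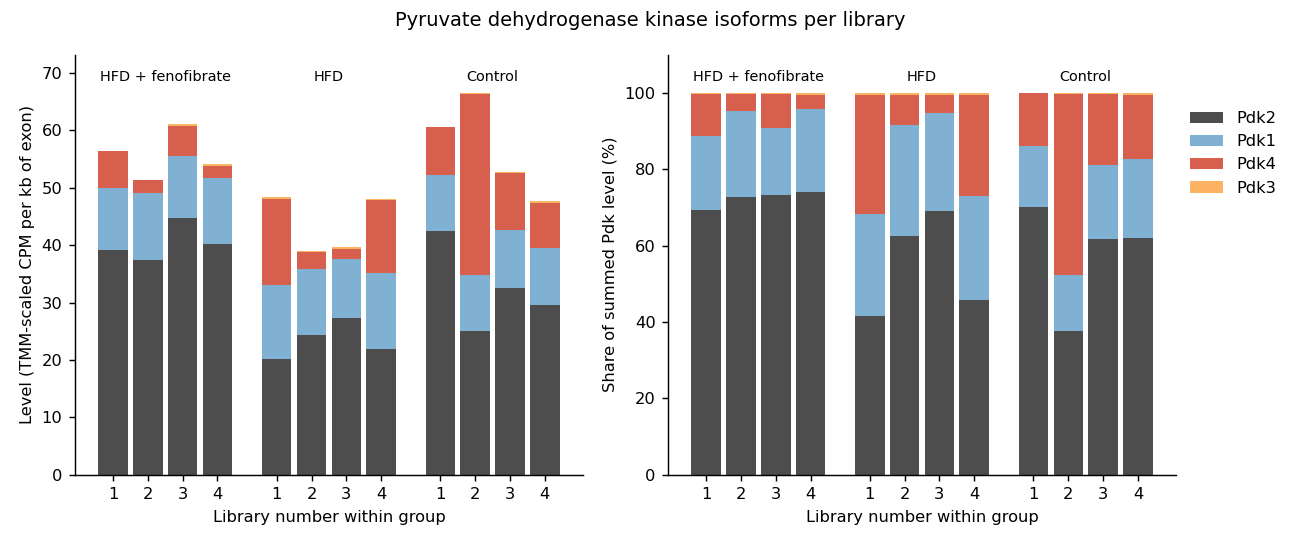
Stacked bars of the 4 Pdk isoforms in each of the 12 libraries, as TMM-scaled CPM per kilobase of exon (left) and as a percentage of their sum (right), grouped as HFD plus fenofibrate, HFD and Control. Pdk2 makes up 69.2% to 74.2% of the stack in every HFD plus fenofibrate library, and the Pdk4 segment is tallest in Control library 2, where it is 47.3%.

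As a share of the summed Pdk level per length, Pdk4 was 11.2%, 4.45%, 8.70% and 3.87% in HFD plus fenofibrate libraries, 31.2%, 7.82%, 4.64% and 26.6% in HFD libraries, and 13.8%, 47.3%, 18.7% and 16.7% in Control libraries. All 4 HFD plus fenofibrate shares were below all 4 Control shares, and the HFD shares split into a high pair and a low pair. The mean share was 7.05% ± 3.49 with fenofibrate, 17.6% ± 13.3 in HFD and 24.1% ± 15.6 in Control. With fenofibrate against Control the difference was -17.1 percentage points (two-sided exact permutation test, p = 0.0286, the smallest p that 70 splits of 4 against 4 allow; 0.0857 adjusted over the 3 comparisons). It was -10.5 points with fenofibrate against HFD (exact permutation p = 0.286, adjusted p = 0.429) and -6.57 points in HFD against Control (exact permutation p = 0.6, adjusted p = 0.6).

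Pdk2 held 72.3% ± 2.14 of the summed level with fenofibrate, 54.7% ± 13.2 in HFD and 57.9% ± 14.0 in Control. Pdk1 held 17.7% to 22.7% with fenofibrate, 25.6% to 29.3% in HFD and 14.6% to 20.8% in Control, so that its share was highest in all 4 HFD libraries. Pdk3 (chromosome X) held at most 0.61% in any library. The summed level itself was 51.4 to 61.0 CPM per kilobase with fenofibrate, 39.1 to 48.4 in HFD and 47.7 to 66.5 in Control, and a share moves with each of its members.

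The list of pyruvate dehydrogenase control held 14 tested genes: the 4 kinases, the phosphatase subunits Pdp1, Pdp2 and Pdpr, which reverse the kinases' action, 5 subunits of the complex and the 2 subunits of the mitochondrial pyruvate carrier. With fenofibrate against HFD, Pdk2 rose and Pdp2 fell, to 31.9 ± 3.58 CPM in HFD plus fenofibrate livers, against 43.4 ± 3.31 CPM in HFD livers (-0.44 ± 0.09, adjusted p = 0.00871; -0.37 and 0.171 without HFD plus fenofibrate libraries 1 and 3). All 4 HFD plus fenofibrate libraries, at 28.5, 30.3, 32 and 36.8 CPM, were below the HFD libraries at 48.1, 40.5, 43.1 and 41.9 CPM. The list's median was -0.20 against 0.01 for all tested genes. DESeq2 also called falls of Pdhx (-0.27, adjusted p = 0.0408), Dld (-0.32, 0.0447) and Mpc2 (-0.36, 0.0480) in this comparison. Only Pdk2 was called by edgeR in HFD against Control, a fall, where DESeq2 also called Pdk1, and the median was 0.14 against -0.02. None of the 14 (0) was called by edgeR with fenofibrate against Control, with 5 at an unadjusted p under 0.05, limma-voom called 0 and DESeq2 called 1, Pdp2 (-0.30, adjusted p = 0.0444).

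The subunit genes Pdha1, Pdhb, Dlat, Dld and Pdhx and the carrier genes Mpc1 and Mpc2 were not called by edgeR in any comparison. Their log2 fold changes lay between -0.36 for Mpc2 and 0.09 for Dlat with fenofibrate against HFD, and between 0.07 for Pdhx and 0.24 for Mpc2 in HFD against Control. Pdp1 and Pdpr averaged under 10 CPM in each group and were not called either.

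Across the 12 libraries, Fgf21 was lower where Pdk2 was higher (Pearson r = -0.799 on log2 levels, permutation p = 0.00252, adjusted p = 0.0378 over 15 pairs of the 6 genes; Spearman rho = -0.776, permutation p = 0.00435, adjusted p = 0.0652). Without HFD libraries 1 and 4, the libraries farthest from the median of Fgf21, r was -0.624, and with group means taken off it was -0.778. In HFD livers the order of the 4 libraries was exactly opposite for the 2 genes: libraries 1, 4, 2 and 3 ran downward in Fgf21 and upward in Pdk2. In Control livers library 2 was highest for Fgf21 and lowest for Pdk2. Within groups r was -0.968 in HFD, -0.795 in Control and weaker with fenofibrate, at -0.291. All 15 pairs were closely related over the 4 HFD libraries, the weakest being Klb and Pdk2 at -0.89. The close relation in HFD was therefore not particular to Fgf21 and Pdk2. The group means differ for Pdk2, so the pooled r mixes differences between groups with those within them.

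Fgf21 and Pdk4 were not shown to move together over all libraries (r = 0.406, permutation p = 0.190, adjusted p = 0.503; rho = 0.301, permutation p = 0.344, adjusted p = 0.663), and r was 0.169 without HFD libraries 1 and 4 and 0.669 with group means taken off. Within single groups, r of Fgf21 and Pdk4 was 0.99 in HFD and 0.852 in Control, but -0.268 with fenofibrate. HFD libraries 1 and 4 and Control library 2 were the highest of their groups for both genes. Library 2 was the highest HFD plus fenofibrate library for Fgf21 and the second lowest for Pdk4. None of the other 13 pairs passed the adjustment by either coefficient. TMM factors were lowest in Control library 2 (0.884) and HFD library 1 (0.896), against 0.934 to 1.16 in the other 10; the part of scaling in these relations was not tested.

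**Figure D4:**
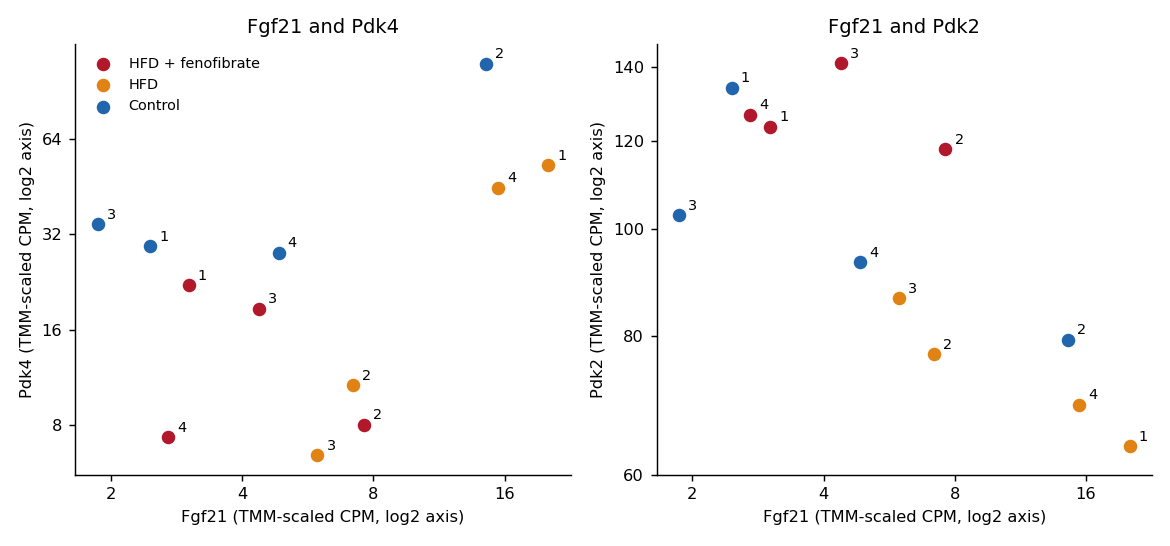
Level of Pdk4 and of Pdk2 (vertical axes, TMM-scaled CPM, log2 axes) against the level of Fgf21 (horizontal axes, TMM-scaled CPM, log2 axes) in the 12 libraries, coloured by group and numbered by library. Pdk2 declines as Fgf21 increases (r = -0.799), while for Pdk4 (r = 0.406) HFD libraries 1 and 4 and Control library 2 sit at the upper right.

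The genes most like Fgf21 across the 12 libraries, among 7303 tested genes with a mean of at least 10 CPM, were Etfdh (r = 0.941), Cops6 (0.937), Pigu (0.934), Atp6v1c1 (0.932) and Pex19 (0.929). Those most like Pdk4, among 7302 genes, were Tmed4 (0.919), Wrnip1 (0.909), Nceh1 (0.896) and Akap9 (0.879). These coefficients are among the 5 highest for each gene and are given as a description over libraries that share groups and scaling. With group means taken off, Atp6v1c1 ranked 1 for Fgf21 while the other 4 ranked between 31 and 81, and Akap9 ranked 1 and Nceh1 2 for Pdk4. Etfdh, the electron-transfer flavoprotein dehydrogenase of fatty acid oxidation, was at 323, 373, 327 and 346 CPM with fenofibrate, 560.3, 427, 408 and 499 in HFD, and 280.3, 542, 306 and 415 in Control.

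Of 15 PPARA and fasting response genes, 0 rose and 3 fell with fenofibrate against HFD, with a median log2 fold change of -0.36 against 0.01 for all tested genes. Plin2, a lipid droplet coat protein, fell to 392, 383, 305 and 328 CPM in HFD plus fenofibrate livers, against 1286, 876, 795 and 1249 CPM in HFD livers (-1.58 ± 0.24, adjusted p = 0.00139). The groups did not overlap, and HFD libraries 1 and 4 were again the high pair. Angptl4, a fasting-induced inhibitor of lipoprotein lipase, fell to 128 ± 40.9 CPM with fenofibrate, against 275 ± 48.0 CPM in HFD (-1.11 ± 0.21, adjusted p = 0.00486). Vnn1, a pantetheinase and known PPARA target, fell to 92.4 ± 26.3 CPM with fenofibrate, against 185 ± 49.5 CPM in HFD (-1.0 ± 0.26, adjusted p = 0.0219). Without HFD plus fenofibrate libraries 1 and 3, Plin2 was the 1 gene of this list still called (-1.56, adjusted p = 0.0330), and Angptl4 was at -0.78 (adjusted p = 0.0721).

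The high-fat diet comparison, HFD against Control, gave 1 rise and 0 falls among the 15, with a median of 0.29 against -0.02. The gene that rose was Vnn1, by 2.45 ± 0.27 (adjusted p = 4.66e-05). Against Control, fenofibrate gave 2 rises (Vnn1 and the phosphatidate phosphatase gene Lpin1) and 2 falls (Angptl4 and Plin2), with a median of 0.01 against -0.01. Lpin1 was at 65.9, 182, 87.3 and 105 CPM with fenofibrate, against 33.6, 14.7, 30.5 and 18.6 CPM in Control (2.17, adjusted p = 0.0358). Left with HFD plus fenofibrate libraries 2 and 4, 1 of the 15 rose and 2 fell, and Lpin1 was not called (2.57, adjusted p = 0.0696). Ppara itself averaged 50.1 ± 6.21 CPM with fenofibrate, 57.2 ± 9.32 in HFD and 40.9 ± 10.8 in Control and did not pass.

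Control library 2, the highest Control library for Fgf21, Klb and Pdk4, was also the highest of the 4 Control libraries in 14 of these 15 genes, or 93.3%, against 27.9% of all tested genes. The exception was Lpin1, in which it was the lowest. Txnip, an inhibitor of thioredoxin, was at 343 CPM there and at 97.9 to 116 CPM in the other Control libraries, and Plin2 was at 1358 CPM there and at 588 to 882 CPM in the others. In the 10 lipogenic genes of the fed state it was the lowest Control library in 7 (70%, against 26% of all tested genes). Among the 12 genes of glucose synthesis and fasting hormone signals it was the highest in 4 and the lowest in 4. Among the 9 tested glucocorticoid-responsive genes it was the highest in 1 (11.1%) and the lowest in 4 (44.4%). These counts describe 1 library, and the labels used here do not state whether this mouse had eaten.

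**Figure D5:**
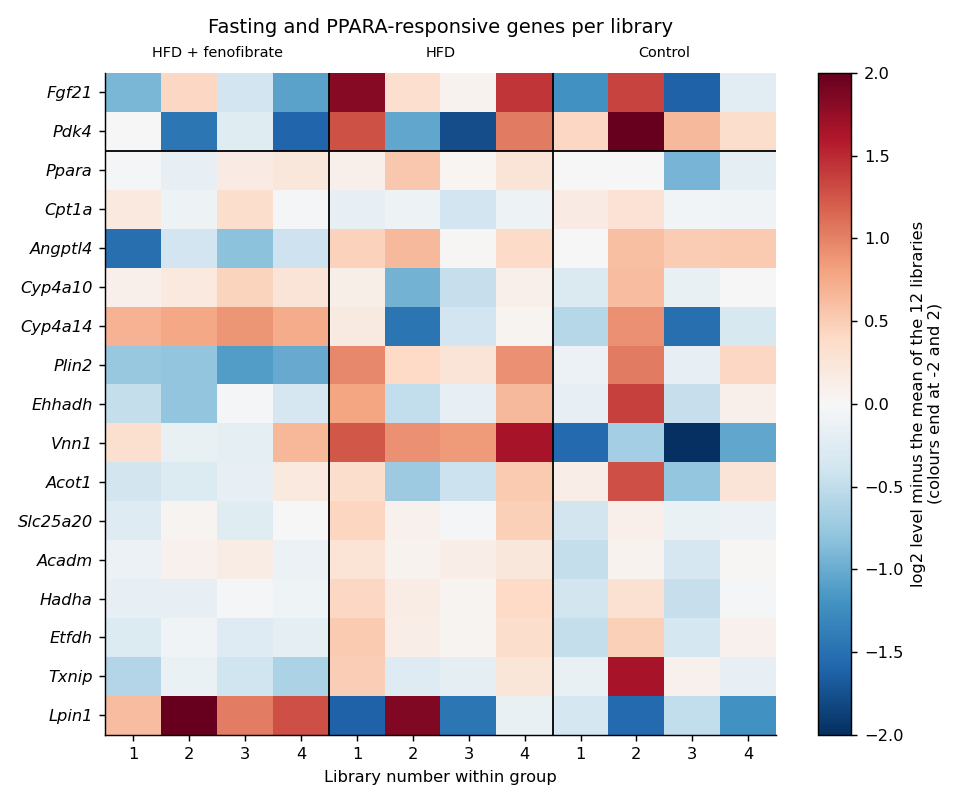
Log2 level of Fgf21, Pdk4 and the 15 PPARA and fasting response genes (rows) minus the mean of the 12 libraries (colour, ending at -2 and 2), with libraries in columns grouped as HFD plus fenofibrate, HFD and Control. Control library 2 is the highest Control column in Fgf21, Pdk4 and 14 of the 15 listed genes, and the lowest in Lpin1.

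The 12 genes of glucose synthesis and fasting hormone signals gave 0 edgeR calls with fenofibrate against HFD, with 4 at an unadjusted p under 0.05; limma-voom called 0 and DESeq2 called 1. In HFD against Control, 1 rose and 2 fell. Pcx, pyruvate carboxylase, rose (0.38, adjusted p = 0.0345). Irs2, the fasting-responsive insulin receptor substrate, fell (-1.47, adjusted p = 0.000814), and so did Sds, serine dehydratase (-1.04, adjusted p = 0.00318). Pcx rose with fenofibrate against Control, and both Irs2 and G6pc, the catalytic subunit of glucose-6-phosphatase, fell there; G6pc was at 264, 438, 404 and 232 CPM with fenofibrate, against 812, 1182, 1102 and 474 CPM in Control (-1.42, adjusted p = 0.00701; -1.40 and 0.0690 without HFD plus fenofibrate libraries 1 and 3). Without these libraries Irs2 was not called there either (-1.17, adjusted p = 0.0502), which left 1 rise and 0 falls, and in HFD against Control Pcx was not called (0.39, adjusted p = 0.0517). The median was 0.08 with fenofibrate against HFD, -0.44 in HFD against Control and -0.15 with fenofibrate against Control, beside 0.01, -0.02 and -0.01 for all tested genes.

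Igfbp1, a secreted binding protein that is high in fasting, was at 37.2 to 90.0 CPM with fenofibrate, at 23.1 to 141 CPM in HFD and at 136, 415, 221 and 63.3 CPM in Control, with Control library 2 again the highest. It was not called in any comparison (-1.63 with fenofibrate against Control, adjusted p = 0.0609). Of the 10 lipogenic genes of the fed state, 5 rose and 0 fell in HFD against Control, with a median of 0.54 against -0.02. Those 5 were Srebf1, Elovl6, Pklr, Me1 and Pnpla3. With fenofibrate against HFD, 0 rose and 2 fell (Elovl6 and Me1, median -0.16 against 0.01), and with fenofibrate against Control, 3 rose and 0 fell (Fasn, Pklr and Srebf1, median 0.57 against -0.01). Without HFD plus fenofibrate libraries 1 and 3, the counts in these last 2 comparisons were 0 and 0, and 1 (Pklr) and 0, and in HFD against Control Srebf1 was not called (0.87, adjusted p = 0.0580).

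Glucocorticoid-responsive genes, which also move in fasting, gave 3 rises and 1 fall among 9 tested with fenofibrate against HFD, with a median of 0.35 against 0.01. Fkbp5, a chaperone of the glucocorticoid receptor, was among those that rose, at 53.3, 59.9, 53.0 and 78.1 CPM with fenofibrate, against 15.0, 53.5, 18.0 and 28.7 CPM in HFD (1.08, adjusted p = 0.0397; 1.26 and 0.152 without HFD plus fenofibrate libraries 1 and 3). Nr3c1, the receptor gene itself, was the one that fell (-0.42, adjusted p = 0.00764; -0.38 and 0.143 without these 2 libraries, which left 1 rise, of Mt1, and 0 falls). Nr3c1 rose and 3 fell in HFD against Control (Fkbp5, Mt1 and Cdkn1a, median 0.01 against -0.02), and with fenofibrate against Control 1 rose and 1 fell (Zbtb16 and Mt1, median -0.11 against -0.01).

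ATF4, the factor that reads amino acid shortage and endoplasmic reticulum stress, is known to act on Fgf21 through amino acid response elements. Of its 8 listed genes, 1 rose with fenofibrate against HFD: Trib3, a pseudokinase, was at 13.7, 14.2, 15.7 and 19.7 CPM with fenofibrate, against 5.40, 10.2, 5.89 and 7.56 CPM in HFD (1.12, adjusted p = 0.00796; 1.22 and 0.0682 without HFD plus fenofibrate libraries 1 and 3). The other 7 were not called there, and the median was 0.12 against 0.01. Chac1 rose and Asns and Atf4 fell in HFD against Control (median -0.36 against -0.02), and with fenofibrate against Control Chac1 rose and Asns and Atf4 fell (median 0.04 against -0.01); both comparisons use the Control libraries. Without HFD plus fenofibrate libraries 1 and 3, Asns was the 1 gene still called with fenofibrate against Control, and Chac1 (1.35, adjusted p = 0.0931) and Atf4 (-0.33, adjusted p = 0.243) were not. Asns, asparagine synthetase, was at 0.25 to 0.94 CPM with fenofibrate, 0.43 to 0.88 in HFD and 1.75 to 4.59 in Control.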

How the data were processed

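Liver RNA-seq of 12 mouse libraries, 4 per group, was analysed from 2 deposited tables that share the 4 HFD libraries. The authors deposited read counts, which are unscaled integers for each Ensembl gene, per the file headers. The deposited log2 fold changes and the deposited p-values and adjusted p-values are the authors' own comparisons, per the file headers, which name no test. Per the submitters' processing notes, the tools were HTSeq 0.6.0, HISAT2 2.0.5 and StringTie 1.3.2d; strand setting and annotation release are not stated in the labels used here. Those notes list builds mm8 and mm9, but gene positions match GRCm38: 23225 of 25113 identifiers (92.5%) lie where GENCODE M21 puts them. Per-length levels use GENCODE M21 exons, and promoters are from RefSeq on GRCm38.p6, in which all 6 genes were found.

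The tables were joined by gene identifier (22657 genes in both; 0 HFD count cells differed; 22 date-like symbols were restored; genes absent from a table were set to 0 there). Genes passing edgeR's filterByExpr were tested in R 4.3.3 with edgeR 4.0.16 (TMM scaling, quasi-likelihood fit of all 12 libraries with 1 coefficient per group, prior count 0.125, common biological coefficient of variation 0.155). SE is the log2 fold change divided by the square root of F. Shares were compared by exact permutation, and correlations of log2(CPM + 0.5) by 100000 permutations. Pairs of libraries within a group differed beyond counting error (chi-square of 13.9 to 38.5 for each gene on average). Only the edgeR fit was tested on simulated counts. Alternatives were DESeq2 1.42.0, limma-voom (limma 3.58.1), other scalings and filters, robust edgeR, only the 8 libraries compared, the library number as a block, each library left out, and HFD plus fenofibrate libraries 1 and 3 left out; leaving out Control library 2 with these was added after the data were seen.

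The 6 genes, the gene lists and the tests were chosen with earlier results of these data known. The text names the 6 genes, all of the FGF21 and pyruvate dehydrogenase lists by level or range, up to 6 genes of each other list with the smallest adjusted p in any comparison, and up to 5 of the genes most correlated with Fgf21 and with Pdk4, except that some items are not reported here and the list counts and medians are given without them; Ppara, Pnpla3 and the marker genes were named beside these after their values were seen.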

Additional observations from a re-analysis of the deposited data

Results flagged for a closer look

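The Pdk4 level of Control library 2, 110.6 CPM, stood apart from the other 3 Control libraries at 28.0 to 34.5 CPM: its gap to the nearest of them was 0.921 of the group's range, above Dixon's 95% critical value for 4 libraries. The Pdk4 share of the summed Pdk level in the same library, 47.33% against 13.8% to 18.7% in the other 3, stood apart in the same way with a ratio of 0.855. They are not independent, since the share contains the level. That this library stands apart for Pdk4 was known when the 6 genes were chosen, so both ratios are descriptions and no independent evidence. In all, 21 groups of 4 libraries were examined in this way, and chance alone marks about 1 in 20.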

How the results depend on the processing

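The number of the 6 genes called in HFD against Control (1) was 0 with upper-quartile scaling, with only the 8 libraries compared, with the replicate block and without HFD plus fenofibrate libraries 1 and 3, because Pdk2 then lost its call: it was -0.46 with upper-quartile scaling (adjusted p = 0.0507), -0.46 with 8 libraries (0.0829), -0.45 with the replicate block (0.0585) and -0.46 without those 2 libraries (0.0714). With total counts only Pdk2 was -0.42 (0.145) and Pdk1 was called at 0.31 (0.0329). DESeq2 called 2, Pdk2 and Pdk1 (0.28, 0.0245). Without HFD plus fenofibrate libraries 1 and 3 and Control library 2, 2 were called, Pdk2 and Fgf21 (1.99, 0.0191), and Klb turned to 0.014.

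With fenofibrate against HFD the number called (1) was 2 with no filter on low counts, where Fgf21 was -1.47 (0.0242), and with only 8 libraries, where it was -1.46 (0.0282). It was 0 without HFD plus fenofibrate libraries 1 and 3 (Pdk2 0.73, 0.0834) and without these and Control library 2 (Pdk2 0.73, 0.0512). Pdk1 turned to 0.091 with total counts only. With fenofibrate against Control the number called (0) was 1 with total counts only (Pdk1 0.40, 0.00718), with no filter (Pdk4 -1.85, 0.00817) and with only 8 libraries (Pdk4 -1.84, 0.0316), and Fgf21 turned to 0.75 without HFD plus fenofibrate libraries 1 and 3 and Control library 2. The causes were not tested.

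When each library was left out in turn, HFD against Control ran from 0.69 to 1.99 for Fgf21, -0.26 to 0.01 for Klb, 0.22 to 0.34 for Pdk1, -0.57 to -0.30 for Pdk2, -1.29 to -0.09 for Pdk4, -0.11 to 0.01 for Creb3l3 and 0 to 2 genes called. HFD plus fenofibrate against HFD ran from -1.85 to -1.12 for Fgf21, 0.10 to 0.31 for Klb, -0.14 to -0.03 for Pdk1, 0.71 to 0.87 for Pdk2, -1.35 to -0.55 for Pdk4, -0.19 to -0.13 for Creb3l3 and 1 to 2 genes called. HFD plus fenofibrate against Control ran from -0.80 to 0.52 for Fgf21, -0.04 to 0.24 for Klb, 0.17 to 0.22 for Pdk1, 0.21 to 0.49 for Pdk2 (called without Control library 1, adjusted p = 0.0214), -2.12 to -1.12 for Pdk4, -0.28 to -0.15 for Creb3l3 and 0 to 1 genes called. The Pdk4 share ran from -11.1 to 1.17 points in HFD against Control. It ran from -14.8 to -5.97 with fenofibrate against HFD and from -20.5 to -9.34 with fenofibrate against Control. The exact permutation p of the share, adjusted over the 3 comparisons, was 0.0857 or more each time. Values that turned sign were Creb3l3 (0.012 without Control library 1), Klb in HFD against Control (0.012 without Control library 2) and with fenofibrate against Control (-0.032 without Control library 3 and -0.036 without HFD plus fenofibrate library 4), Fgf21 with fenofibrate against Control (0.52) and the share (1.17), both without Control library 2. Of 531 values recomputed under the alternatives, 466 kept their direction and side of the threshold or, for counts of genes called, did not change.

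The library numbers are not stated to pair the samples. Same-numbered libraries had r from -0.218 to 0.181 after group means were taken off, and low values cannot exclude a pairing. With the library numbers as a block, 746 genes rose and 765 fell in HFD against Control. The counts were 805 and 869 with fenofibrate against HFD, and 570 and 534 with fenofibrate against Control. Total counts only gave 2059 rises and 451 falls with fenofibrate against HFD (928 and 888 with TMM) and 2119 and 298 with fenofibrate against Control (655 and 581 with TMM), and moved the median of all genes to 0.18 and 0.20. In HFD against Control total counts only gave 919 and 523, against 826 and 895 with TMM. Without HFD plus fenofibrate libraries 1 and 3, fenofibrate against Control had 215 rises and 158 falls. Fgf21 rests on as few as 30 reads in a library, so counting error adds to its spread.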

Other observations

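Of the HFD libraries that were high for Fgf21 and Pdk4, libraries 1 and 4, library 1 was the highest HFD library in 8 of the 15 PPARA and fasting response genes (53.3%, against 30.5% of all tested genes) and library 4 in 3 (20%, against 23%). HFD library 3, the lowest for Fgf21 and Pdk4, was the lowest in 8 (53.3%, against 26.6%). Among the 12 genes of glucose synthesis and fasting hormone signals, library 1 was the highest in 5 and the lowest in 4, library 2 the highest in 7 and library 4 the highest in 0. Lpin1 ran another way: it was at 155 CPM in HFD library 2, against 14.0, 15.8 and 38.7 CPM in HFD libraries 1, 3 and 4. Zbtb16, a glucocorticoid-responsive transcription factor gene, was also highest in HFD library 2 at 17.1 CPM, against 1.82, 1.90 and 8.62 CPM in the other HFD libraries. These counts describe single libraries, and no test was run on them.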
